A study of Mus musculus with 24 samples.

Results

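The interleukin 6 family and its STAT3 pathway were described through 9 genes: the ligand Il6, the receptor chains Il6ra, Il6st, Osmr and Lifr, the kinases Jak1 and Jak2, the transcription factor Stat3 and the inhibitor Socs3. They were taken as every array probe annotated to these symbols, which gave 23 probes for 9 of the 20175 genes named on the array. Of these, 16 probes of 8 genes exceeded their array's median on at least 6 of 24 arrays and were tested, and the single Il6 probe did not. In knockout hearts with a low ejection fraction the transcript of the inhibitor Socs3 was 2.28-fold higher and that of the receptor chain Lifr 1.91-fold lower than in controls. Knockout hearts with a higher ejection fraction had Socs3 at 2.65-fold the control level and Lifr at a level between the other groups. Without an array that stood apart, Socs3 was at 2.3-fold the control level in both knockout groups.

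Some ligands of this family first bind a receptor chain of their own, as interleukin 6 does with its receptor (Il6ra). Signals pass through the shared chain encoded by Il6st, which pairs with itself, with the leukemia inhibitory factor receptor (Lifr) or with the oncostatin M receptor (Osmr). The Janus kinases Jak1 and Jak2 sit on these chains and phosphorylate STAT3, which enters the nucleus as a dimer and switches on genes that include Socs3, whose protein binds the shared chain and the kinases and ends the signal. In heart muscle the family is known for its part in growth and survival of cardiomyocytes under load.

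RNA of the left ventricle of 24 male mice of mixed genetic background was hybridised to Illumina mouse arrays, 1 heart per array, in a series titled as a model of dilated cardiomyopathy. The control group (WT) had 11 wild-type hearts with an ejection fraction (EF, the share of its filling volume that the ventricle expels per beat) of 79.5 ± 4.66% (SD, n = 11) and ages of 27 to 33 weeks. The other groups were cardiac-specific knockouts (KO) of EP4, the prostaglandin E receptor encoded by Ptger4, aged 27 to 33.5 weeks. KO low EF held 6 hearts with an EF of 24.8 ± 6.96% (SD, n = 6), and KO high EF held 7 hearts with an EF of 56.8 ± 10.4% (SD, n = 7). The KO groups were thus split by function and not by genotype, and EF ran from 13.7 to 34% in KO low EF, from 45.9 to 76.4% in KO high EF and from 71.4 to 86.1% in WT. The labels do not give the promoter that drove the recombinase, whether WT mice carried it, or whether mice were littermates. In bulk tissue, fewer cells of a type and less RNA per cell cannot be told apart.

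Values are log2 normalised intensities, and differences are on the log2 scale with their standard errors. The array median was 6.77, and a level near it is close to background. Median raw intensity ran from 105.6 to 154.7 over the arrays. The array of KO high EF replicate 11 had the lowest median and stood apart, with a median correlation of 0.839 to the other arrays against 0.974 to 0.987 for the others. It read near 6 on 5 probes of Il6ra, Osmr and Stat3 whose level was at least 6.83 in every other heart. Calls of tested member probes in KO low EF against WT that changed without it are therefore given in both fits, as are those of Osmr in KO high EF. Other results use all arrays unless stated. The targeted gene could not be checked: the only Ptger4 probe above the filter ran from 6.72 to 7.17 in WT, from 6.66 to 7.00 in KO low EF and from 6.52 to 8.00 in KO high EF, with no difference past the threshold (limma, adjusted p = 0.901 and 0.338 against WT), and whether it lies in the deleted part is not given. Without replicate 11 the Ptger4 difference in KO high EF against WT was 0.06, against 0.20 with it (limma, adjusted p = 0.772 and 0.338). The hearts' cardiomyocyte markers (14 of 15 measured) had a mean level of 13.9 to 14.0 in WT, 13.9 to 14.1 in KO low EF and 13.7 to 14.1 in KO high EF. Replicate 11 gave the lowest of these levels, at 13.7.

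Promoter bases are shown for Socs3, a known STAT3 target, and for the receptor chains Lifr and Osmr, whose brightest probes separated KO low EF from WT hearts without overlap. STAT3 is known to bind TTCNNNGAA, a motif that reads the same on both strands when N stands for any base. The sequences are RefSeq's for GRCm38.p6, the 250 bases before the transcript start, 5′ to 3′ on the gene's strand, with any match in capitals. Socs3 lies at chr11:117969367-117969616 on the minus strand, Osmr at chr15:6874314-6874563 on the minus strand, and the promoter of Lifr start 1 at chr15:7129322-7129571 on the plus strand.
Socs3: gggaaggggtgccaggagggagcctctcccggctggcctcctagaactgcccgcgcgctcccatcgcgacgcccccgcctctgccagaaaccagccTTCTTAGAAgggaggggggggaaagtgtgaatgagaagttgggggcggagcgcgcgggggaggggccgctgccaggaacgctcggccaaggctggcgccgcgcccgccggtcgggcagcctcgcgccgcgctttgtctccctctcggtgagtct
Osmr: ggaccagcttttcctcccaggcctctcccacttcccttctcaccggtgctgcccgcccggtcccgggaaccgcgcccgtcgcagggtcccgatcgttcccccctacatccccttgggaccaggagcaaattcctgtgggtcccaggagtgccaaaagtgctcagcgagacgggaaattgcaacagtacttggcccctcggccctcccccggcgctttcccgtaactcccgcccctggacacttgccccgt
Lifr: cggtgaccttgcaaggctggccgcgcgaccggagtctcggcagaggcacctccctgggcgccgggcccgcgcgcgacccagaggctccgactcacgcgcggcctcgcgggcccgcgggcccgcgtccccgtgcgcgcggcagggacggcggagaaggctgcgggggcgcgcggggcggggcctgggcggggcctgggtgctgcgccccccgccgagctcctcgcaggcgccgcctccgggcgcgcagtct
The Socs3 promoter held 1 match, 154 to 146 bases before the start. Among the 10 promoters that the table gives for the 9 members, in windows of 300 bases that include 50 after the start, it was the only 1 with a match. The motif was in 2726 of all 32851 mouse promoters of that length (8.3%). A match describes these letters and not binding, and no match says only that they are not in this window.

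Against WT, 5 of the 16 member probes passed the test in KO low EF hearts (31.2%), 2 higher and 3 lower. The 3 lower ones were all of Lifr and the 2 higher ones were of Socs3 and Stat3, and probes of the same gene are counted separately throughout. Among all 25425 probes tested, 24.4% passed, 12.1% higher and 12.3% lower. In KO high EF hearts 3 of 16 passed (18.8%), 1 higher and 2 lower, against 14.4% of all probes, 8.5% higher and 5.9% lower. The median difference over the member probes was 0.21 for KO low EF against -0.04 for KO high EF, while the medians over all probes were -0.01 and 0.01. Without KO high EF replicate 11 the member medians were 0.22 and 0.05, so the sign in KO high EF turned on that array. The counts without that array were 11 of 16 in KO low EF (7 higher, 4 lower), where 33.8% of all probes passed (16.5% higher, 17.3% lower), and 5 of 16 in KO high EF (3 higher, 2 lower), where 19% of all probes passed (9.43% higher, 9.57% lower). Both comparisons use the same WT hearts. The plot of differences from WT shows which probes moved with that array.

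**Figure D1:**
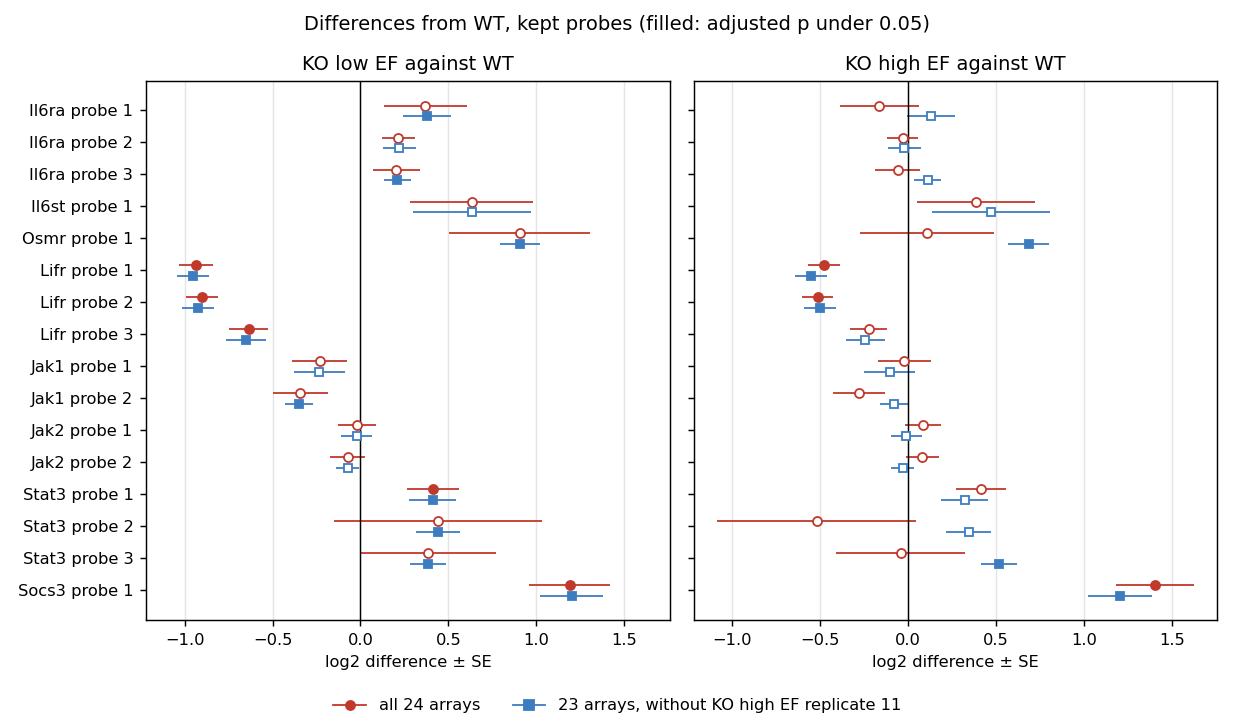
Log2 difference from WT ± SE (x axis) for the 16 tested member probes (y axis), in KO low EF hearts (left) and KO high EF hearts (right). Circles are fits to all 24 arrays, squares are fits to 23 arrays without KO high EF replicate 11, and filled symbols have an adjusted p under 0.05: Lifr probes 1 and 2 and Socs3 are filled in both panels and both fits, Lifr probe 3 and Stat3 probe 1 are filled in both fits for KO low EF alone, and Osmr is filled without that array, at 0.91 and 0.69. Also filled only without that array are Stat3 probes 2 and 3, Il6ra probes 1 and 3 and Jak1 probe 2 for KO low EF, and Stat3 probe 3 for KO high EF.

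The ligand itself was at the edge of detection. Il6 ran from 6.02 to 6.59 in WT (median 6.37), from 6.33 to 6.61 in KO low EF (median 6.55) and from 6.27 to 6.96 in KO high EF (median 6.67), and it exceeded the array median on 3 of 24 arrays. The groups overlapped. In a fit without the filter on dim probes, over all 45281 probes, Il6 differed from WT by 0.35 ± 0.09 in KO high EF (limma, adjusted p = 0.0171) and by 0.15 ± 0.10 in KO low EF (adjusted p = 0.452), with all 3 medians under the array median.

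The 4 receptor chains did not move together. Lifr, which carries signals of leukemia inhibitory factor and of the cardiotrophin encoded by Ctf1, was the member with the smallest p in KO low EF hearts. Its brightest probe (ILMN_2829008) ran from 8.46 to 8.96 in WT (median 8.68), from 7.66 to 7.90 in KO low EF (median 7.80) and from 7.85 to 8.63 in KO high EF (median 8.23). Every KO low EF heart lay below every WT heart, as did 6 of 7 KO high EF hearts, and the heart that did not was replicate 11. Such a full separation below WT was seen for 6.16% of all probes in KO low EF. In KO high EF it was seen for 1.09%, and for 2.04% without replicate 11.

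Relative to WT, Lifr fell by 0.93 ± 0.10 in KO low EF (1.91-fold; limma, adjusted p = 7.13e-08) and fell by 0.48 ± 0.09 in KO high EF (1.39-fold; adjusted p = 0.000748). The KO groups themselves also differed, by -0.46 ± 0.11 (1.37-fold lower in KO low EF; limma, adjusted p = 0.0195), so that the order WT, KO high EF, KO low EF had a difference past the threshold at each step. Between the KO groups 2 of 16 member probes passed, both of Lifr and both lower in KO low EF, against 2.92% of all probes in either direction and 1.99% lower in KO low EF. Without replicate 11 the 3 Lifr differences were -0.95, -0.55 and -0.40 (adjusted p = 2.92e-09, 5.25e-05 and 0.0211).

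Lifr probe 2 gave the same order. It ran from 7.78 to 8.47 in WT (median 8.13), from 7.02 to 7.45 in KO low EF (median 7.28) and from 7.49 to 7.80 in KO high EF (median 7.64). Its differences were -0.90 ± 0.09 in KO low EF against WT (adjusted p = 3.72e-08), -0.51 ± 0.09 in KO high EF against WT (adjusted p = 0.000145) and -0.39 ± 0.10 between the KO groups (adjusted p = 0.0326). Probe 3, the dimmest, passed in KO low EF against WT (-0.64 ± 0.11, adjusted p = 0.000103) and not in KO high EF against WT (-0.23 ± 0.11, adjusted p = 0.179) or between the KO groups (-0.41 ± 0.12, adjusted p = 0.073). The prefix of the array labels was read as the chip, which the labels do not state. The Lifr differences from WT held within the chips so read. Probe 1 was lower in KO low EF on each of 3 chips (-1.17 to -0.83) and in KO high EF on each of 4 (-1.02 to -0.25). The step between the KO groups did not pass with the chip as a block (-0.47, adjusted p = 0.0731 for probe 1; -0.38, adjusted p = 0.0803 for probe 2), although within the 3 chips that held both groups probe 1 differed by -0.55 to -0.15.

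**Figure D2:**
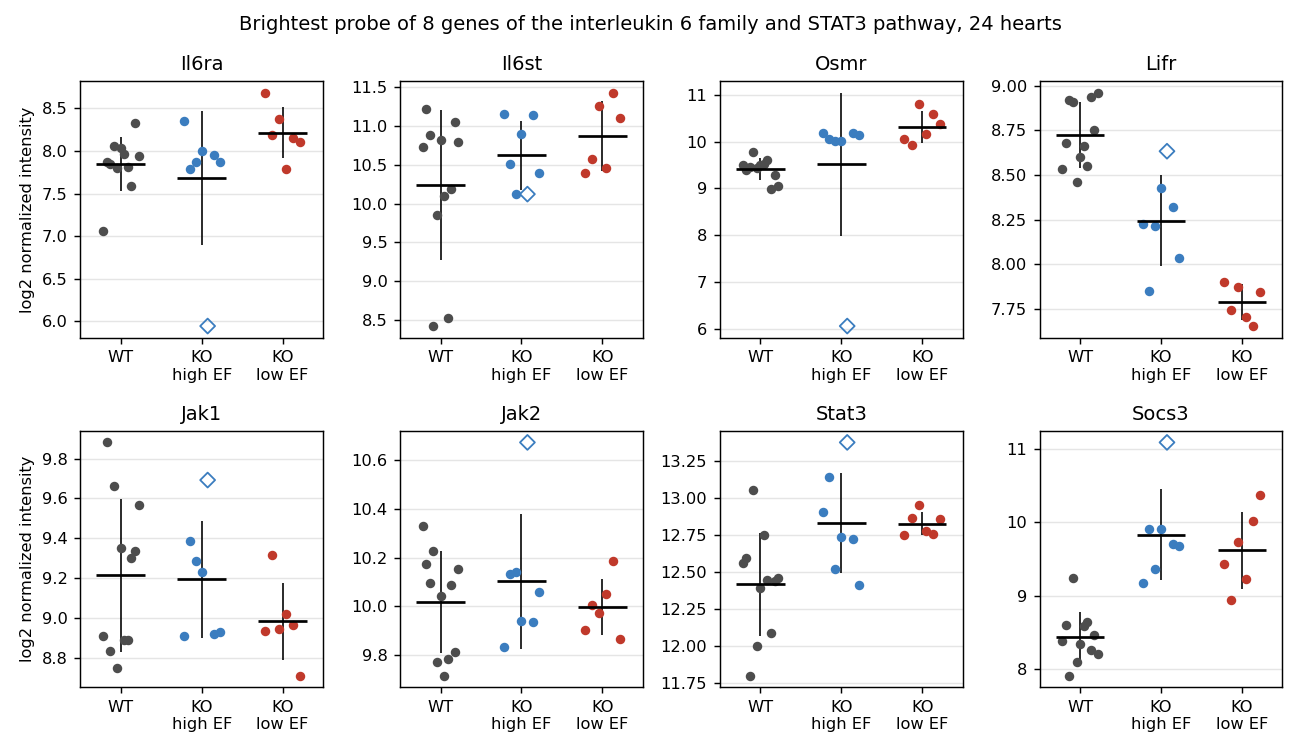
Log2 normalised intensity (y axis, a separate scale per gene) of the brightest probe of 8 members in 24 hearts by group. Points are hearts, bars mark the mean and lines the SD, and the open diamond is KO high EF replicate 11, which lies at 6.06 for Osmr while the 6 other KO high EF hearts lie from 10.0 to 10.2.

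Osmr, the oncostatin M receptor, lay above all WT hearts in every KO heart but replicate 11. Its brightest probe (ILMN_2623280) ran from 8.99 to 9.78 in WT (median 9.46), from 9.92 to 10.8 in KO low EF (median 10.3) and from 10.0 to 10.2 in 6 KO high EF hearts (median 10.1), with the remaining heart at 6.06. Thus 12 of 13 KO hearts lay above the highest WT heart. A full separation above WT was seen for 6.16% of all probes in KO low EF, for 2.16% in KO high EF and for 2.85% in KO high EF without replicate 11.

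With all arrays no Osmr difference passed (0.90 ± 0.40 in KO low EF, adjusted p = 0.112; 0.11 ± 0.38 in KO high EF, adjusted p = 0.887). Without replicate 11 Osmr was 1.88-fold higher than WT in KO low EF (0.91 ± 0.11, adjusted p = 3.99e-07) and 1.61-fold higher in KO high EF (0.69 ± 0.11, adjusted p = 8.2e-05), both in limma. The KO groups did not differ past the threshold from each other (0.22 ± 0.13 without that array, adjusted p = 0.456). Within chips Osmr was higher in KO low EF than in WT on each of 3 chips, by 0.69 to 1.06, and in KO high EF it was higher on 3 of 4, with the chip of replicate 11 as the exception. The other 2 Osmr probes did not exceed the filter.

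Il6st, the chain that all these receptors share, ran from 8.42 to 11.2 in WT (median 10.7), from 10.4 to 11.4 in KO low EF (median 10.8) and from 10.1 to 11.2 in KO high EF (median 10.5). The groups overlapped, and WT replicates 4 and 8, at 8.42 and 8.53, lay below all other hearts, which gave WT an SD of 0.96. Il6st differed from WT by 0.63 ± 0.35 in KO low EF (limma, adjusted p = 0.225, 95% interval -0.09 to 1.36) and by 0.38 ± 0.33 in KO high EF (adjusted p = 0.484). The interval leaves out a fall as large as that of Lifr.

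Il6ra, the chain that binds interleukin 6 itself, ran from 7.06 to 8.33 in WT (median 7.87), from 7.79 to 8.68 in KO low EF (median 8.17) and from 7.78 to 8.35 in 6 KO high EF hearts (median 7.91), with replicate 11 at 5.95. These ranges overlapped. Probe 1 differed from WT in KO low EF by 0.37 ± 0.24 (adjusted p = 0.316), and by 0.38 ± 0.14 without replicate 11 (limma, adjusted p = 0.0354). Probe 3 changed its call in the same way (0.20 ± 0.14, adjusted p = 0.333; 0.21 ± 0.08, adjusted p = 0.0384 without that array), and probe 2 missed the threshold in both fits (0.22 ± 0.09, adjusted p = 0.0959 and 0.0698). In KO high EF no Il6ra probe passed in either fit.

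No probe of the kinases passed with all arrays. Jak2 probe 1 ran from 9.71 to 10.3 in WT (median 10.1), from 9.86 to 10.2 in KO low EF (median 9.99) and from 9.84 to 10.7 in KO high EF (median 10.1), and differed from WT by -0.02 ± 0.11 and 0.08 ± 0.10 (limma, adjusted p = 0.94 and 0.633), with signs that changed with the scaling of the arrays or with replicate 11. Jak1 probe 1 ran from 8.75 to 9.88 in WT (median 9.30), from 8.71 to 9.32 in KO low EF (median 8.96) and from 8.91 to 9.69 in KO high EF (median 9.23), and its difference in KO low EF was -0.23 ± 0.16 (adjusted p = 0.346). All groups of both kinases overlapped. Jak1 probe 2 differed from WT in KO low EF by -0.34 ± 0.16 (adjusted p = 0.123), and by -0.35 ± 0.08 without replicate 11 (adjusted p = 0.00103), but the authors' deposited table assigns this probe to RAVER2, so its gene is in doubt.

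Stat3, the transcription factor at the end of the pathway, had 3 tested probes, of which 1 passed in KO low EF with all arrays and 3 without replicate 11. Probe 1 (ILMN_2698046) ran from 11.8 to 13.1 in WT (median 12.4), from 12.8 to 13.0 in KO low EF (median 12.8) and from 12.4 to 13.4 in KO high EF (median 12.7). The 6 KO low EF hearts lay close together above all WT hearts but 1. Stat3 probe 1 differed from WT by 0.41 ± 0.15 in KO low EF (limma, adjusted p = 0.0451) and by 0.41 ± 0.14 in KO high EF (adjusted p = 0.0516), and over all 13 KO hearts by 0.41 ± 0.12 (adjusted p = 0.0118). Within chips it was higher in KO low EF on each of 3 (0.23 to 0.58) and in KO high EF on each of 4 (0.24 to 0.59). The call in KO low EF was lost under 4 of 14 alternative settings, with adjusted p up to 0.0849, and the KO groups did not differ from each other past the threshold (-0.0025 ± 0.16, adjusted p = 0.997).

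Stat3 probes 2 and 3 depended on replicate 11. Probe 2 ran from 11.2 to 12.2 in WT (median 11.8) and from 12.0 to 12.5 in KO low EF (median 12.1), and probe 3 from 9.13 to 9.94 in WT (median 9.36) and from 9.49 to 10.0 in KO low EF (median 9.81). In KO high EF replicate 11 they read 6.02 and 6.04, while the other KO high EF hearts began at 11.8 and 9.69. That array was at the same time the highest of all on Stat3 probe 1, at 13.4, so its 3 Stat3 probes disagree. With all arrays neither probe passed in KO low EF (0.44 ± 0.59 and 0.38 ± 0.39, adjusted p = 0.702 and 0.579).

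Without replicate 11 all 3 Stat3 probes were higher in KO low EF hearts, by 0.41 ± 0.13, 0.44 ± 0.13 and 0.39 ± 0.10 (limma, adjusted p = 0.017, 0.00719 and 0.00423), a rise of 1.31- to 1.36-fold. In KO high EF hearts probe 3 passed (0.52 ± 0.10, adjusted p = 0.000583) and probes 1 and 2 did not (0.32 ± 0.13 and 0.34 ± 0.13, adjusted p = 0.0945 and 0.0577). The plot of Stat3 by probe shows that each WT range reaches into the KO ranges.

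**Figure D3:**
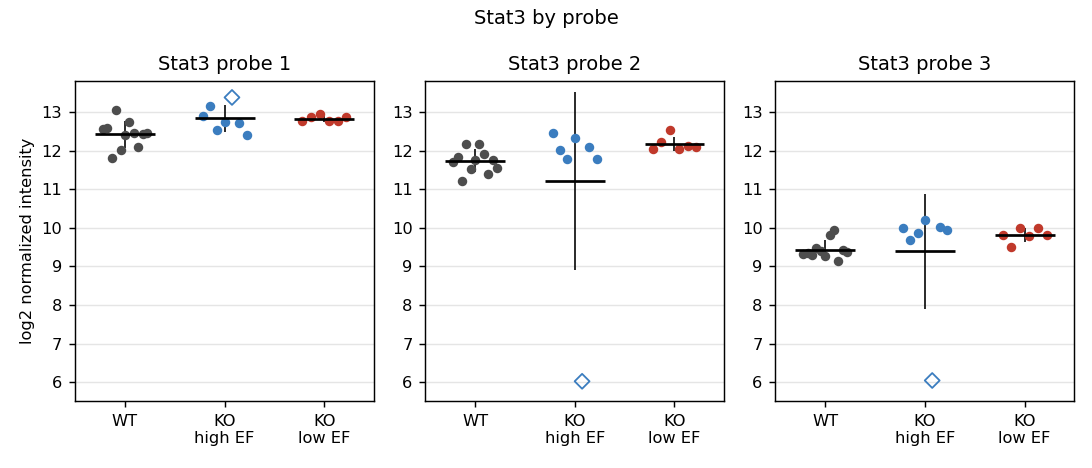
Log2 normalised intensity (y axis) of the 3 Stat3 probes in 24 hearts by group. Points are hearts, bars mark the mean and lines the SD, and the open diamond is KO high EF replicate 11, at 13.4, 6.02 and 6.04 on the 3 probes.

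Socs3, the feedback inhibitor, had the largest rise among the members that passed with all arrays. Its probe (ILMN_2618176) ran from 7.91 to 9.24 in WT (median 8.39), from 8.94 to 10.4 in KO low EF (median 9.58) and from 9.18 to 11.1 in KO high EF (median 9.70). A single WT heart, at 9.24, overlapped with the KO hearts: 10 of 13 KO hearts lay above it, and all 13 above the other WT hearts. Replicate 11 was the highest, and the 6 other KO high EF hearts lay from 9.18 to 9.92.

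Socs3 was higher than WT by 1.19 ± 0.23 in KO low EF (2.28-fold; limma, adjusted p = 0.000294) and by 1.40 ± 0.22 in KO high EF (2.65-fold; adjusted p = 6.98e-05). The KO groups did not differ past the threshold (-0.21 ± 0.25, adjusted p = 0.732), with a 95% interval of -0.74 to 0.31 for KO low EF minus KO high EF. Without replicate 11 both differences from WT were 1.20 ± 0.18 (adjusted p = 5.47e-06 and 2.01e-05) and the difference between the KO groups was -0.0035 ± 0.21. Within chips Socs3 was higher in KO low EF on each of 3 chips (0.66 to 1.67) and in KO high EF on each of 4 (0.80 to 1.84). Taking all KO hearts against WT, Socs3 was 2.46-fold higher and Lifr 1.63-fold lower (adjusted p = 7.16e-06 and 1.86e-07), and 5 of 16 member probes passed against 25.4% of all probes.

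EF was also used in graded form. Within KO hearts Lifr probe 1 had a slope of 0.11 ± 0.03 per 10 points of EF (limma, adjusted p = 0.0551) and probe 2 a slope of 0.10 ± 0.03 (adjusted p = 0.0624; 0.11, adjusted p = 0.0361 without replicate 11). The slope of Socs3 was 0.10 ± 0.07 (adjusted p = 0.486) and that of Osmr -0.22 ± 0.13 (adjusted p = 0.404). Both were smaller without replicate 11, at 0.04 ± 0.06 for Socs3 and -0.04 ± 0.04 for Osmr (limma, adjusted p = 0.828 and 0.686). With all arrays no member probe passed after adjustment in limma, against 4.38% of all probes. The 3 Lifr probes had positive and the 3 Il6ra probes negative slopes. That of Il6ra probe 1 was -0.18 ± 0.07, and -0.09 ± 0.04 without replicate 11 (limma, adjusted p = 0.177 and 0.202). The slopes of these genes within WT, and the differences of the slopes, did not pass either. KO high EF replicate 13, with an EF of 76.4% inside the WT range, still had Lifr at 8.04, below all WT hearts, and Socs3 at 9.68 and Osmr at 10.1, above all WT hearts.

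**Figure D4:**
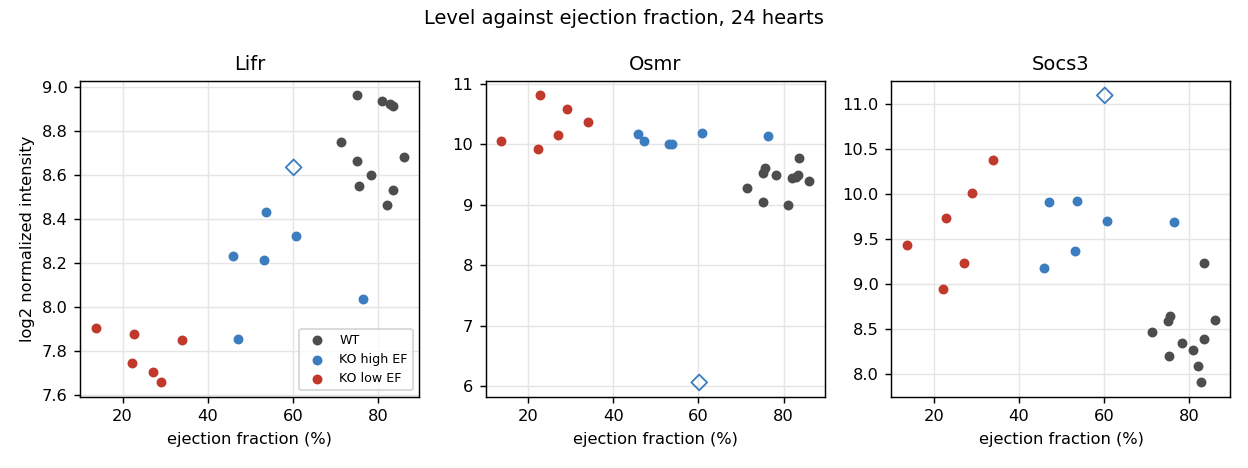
Log2 normalised intensity of Lifr, Osmr and Socs3 (y axes, brightest probe) against ejection fraction in percent (x axis) in 24 hearts. Points are hearts coloured by group and the open diamond is KO high EF replicate 11; the KO heart at 76.4% lies apart from the WT hearts of like EF on all 3 genes.

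The other genes of the pathway were described by their brightest tested probe, and ligands and inhibitors were counted from lists. Of 9 further ligands 5 were measured, with median differences of 0.18 (KO low EF) and 0.09 (KO high EF hearts), where 1 rose and 1 fell in the former and 1 fell in the latter, beside 24.4% and 14.4% of all probes called in either direction. Ctf1, the cardiotrophin that signals through Lifr and Il6st, ran from 9.35 to 9.73 in WT (median 9.46), from 7.83 to 8.92 in KO low EF (median 8.55) and from 8.79 to 9.48 in KO high EF (median 8.99). Like Lifr, Ctf1 had all KO low EF hearts below all WT hearts, with a difference of -0.998 ± 0.12 (2.00-fold lower; limma, adjusted p = 4.89e-07), and it differed from WT by -0.45 ± 0.11 in KO high EF (adjusted p = 0.00752). Il11, a ligand known for fibroblast responses, was higher in KO low EF by 0.57 ± 0.14 (adjusted p = 0.00353) and differed by 0.28 in KO high EF (adjusted p = 0.182). Its level was close to background in WT (6.01 to 7.36, median 6.82), and the range in KO low EF (7.09 to 7.75) overlapped it. Osm, Cntf and Ebi3 did not pass in either comparison.

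Among the other receptor genes Il27ra, which pairs with the shared chain to bind interleukin 27, rose by 0.63 ± 0.09 in KO low EF and by 0.56 ± 0.08 in KO high EF (limma, adjusted p = 4.91e-06 and 4.89e-05). Cntfr, Il11ra1 and Il11ra2, which bind ciliary neurotrophic factor and interleukin 11, did not pass in either comparison.

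Among the other kinases and STAT factors Stat5a, a transcription factor of the same family as Stat3, fell by 0.64 ± 0.10 in KO low EF (limma, adjusted p = 2.37e-05) and by 0.37 ± 0.10 in KO high EF (adjusted p = 0.00908). The kinases Jak3 and Tyk2 and the factors Stat2, Stat4 and Stat6 did not pass in either comparison.

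The 17 further inhibitors were all measured, and 2 rose in KO low EF hearts and 1 in KO high EF hearts, with medians of 0.06 and 0.06. Among all probes 12.1% and 8.5% were higher, so the inhibitors' share did not exceed that of the array. The risen ones were Ptpn6, a phosphatase of blood cells (0.70 ± 0.11 and 0.57 ± 0.10; limma, adjusted p = 2.51e-05 and 0.000408), and Ptpn1, a widely expressed phosphatase that acts on Janus kinases (0.52 ± 0.15 in KO low EF, adjusted p = 0.00893; 0.41 in KO high EF, adjusted p = 0.0516). None of the other members of the SOCS and PIAS groups on the list passed in either comparison with all arrays. Without replicate 11, 3 inhibitors rose and 1 fell in KO low EF, and 1 rose and 1 fell in KO high EF.

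**Figure D5:**
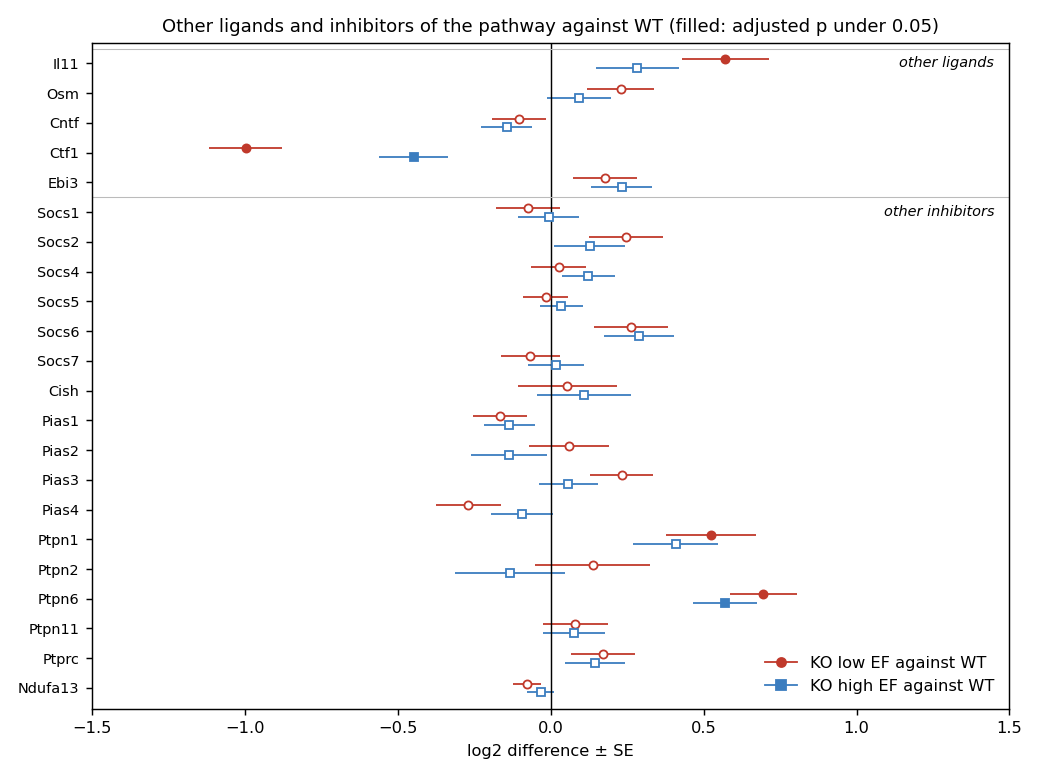
Log2 difference from WT ± SE (x axis) for the brightest tested probe of each other ligand and inhibitor gene (y axis). Circles are KO low EF hearts, squares are KO high EF hearts, and filled symbols have an adjusted p under 0.05: Ptpn6 lies farthest right at 0.70 and 0.57, and Ctf1 farthest left at -0.998 and -0.45.

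Of 40 genes on a list of known STAT3 targets and acute phase genes, 35 were measured. In KO low EF hearts 17 rose and 1 fell, with a median difference of 0.37, and in KO high EF hearts 12 rose and 1 fell, with a median of 0.31, beside medians over all probes of -0.01 and 0.01. Of all probes 12.1% were higher and 12.3% lower in KO low EF, and 8.5% and 5.9% in KO high EF. Like the other lists, this one was chosen with earlier results of these data known. Its counts are thus a description, and STAT3 activity was not tested. Timp1, an inhibitor of matrix proteases, ran from 7.94 to 10.1 in WT (median 8.80), from 11.7 to 14.1 in KO low EF (median 13.1) and from 11.5 to 13.5 in KO high EF (median 12.6). Its KO and WT ranges did not overlap, as for 1.87% of all probes on the rising side. Lbp, which binds bacterial lipopolysaccharide and belongs to the acute phase response, rose by 1.79 ± 0.16 in KO low EF (3.47-fold; limma, adjusted p = 4.23e-09) and by 1.18 ± 0.15 in KO high EF (adjusted p = 4.81e-06). Spp1, the matrix protein osteopontin, rose by 1.89 ± 0.25 and 1.60 (adjusted p = 2.24e-06 and 3.61e-05), and Nampt, an enzyme of NAD synthesis, fell by 1.03 ± 0.13 and 0.56 (adjusted p = 1.68e-06 and 0.00341).

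Markers of macrophages and fibroblasts moved with the same groups. Of 18 macrophage markers 17 were higher in KO low EF hearts and 14 in KO high EF hearts, and their mean level ran from 8.86 to 9.30 in WT, from 9.96 to 10.2 in KO low EF and from 9.66 to 10.1 in KO high EF, without overlap with WT. Higher calls made up 12.1% and 8.5% of all probes. Of 16 fibroblast markers 12 and 13 were higher (12 and 8 with the arrays scaled to a common median), with mean levels of 9.86 to 10.2, 10.9 to 11.2 and 10.6 to 11.1. Macrophages and fibroblasts are known to express several genes described above, and the part of these cells in the differences of Osmr, Socs3, Stat3, Timp1 and Ptpn6 was not tested. The mean level of 9 neutrophil markers ran from 6.92 to 7.58 in WT, from 6.90 to 8.09 in KO low EF and from 6.86 to 7.47 in KO high EF. The groups also overlapped for 9 lymphocyte markers, 12 endothelial markers and 10 markers of smooth muscle and pericytes. The lymphocyte mean was close to background, at 6.815 to 7.057 in WT, 6.851 to 6.996 in KO low EF and 6.767 to 7.128 in KO high EF. Of the 14 cardiomyocyte markers 1 rose and 3 fell in KO low EF, where 12.1% of all probes rose and 12.3% fell, and the part of these cells in the difference of Lifr was not tested.

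The genes whose levels followed a member most closely were sought among 13682 genes over 23 arrays, without replicate 11, as a description of arrays that share the same group differences. For Lifr they were Ivd (Pearson's r = 0.948), an enzyme of leucine breakdown, and Acsl1 (r = 0.946) and Acadm (r = 0.942), enzymes of fatty acid activation and oxidation. For Socs3 they were Ch25h (r = 0.945), which makes a hydroxylated cholesterol, Timp1 (r = 0.936) and Aldh1a3 (r = 0.931), an enzyme of retinoic acid synthesis. For Stat3 they were Pfn1 (r = 0.822), an actin-binding protein, and Rrp12 and Bop1 (r = 0.822 and 0.819), factors of ribosome assembly.

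Osmr and Lifr are neighbours of the deleted gene. In the GRCm38.p6 gene order they are the 5th and 6th genes with a tested probe after Ptger4 on the same chromosome, and with 1 targeted allele the genotype and the DNA next to it cannot be told apart. Of the 22 genes with a tested probe within 3 Mb of Ptger4, itself included, 6 were higher and 4 lower in KO low EF than in WT, and 5 and 3 in KO high EF, beside 24.4% and 14.4% of all probes called in either direction. Their median difference was -0.01 for KO low EF against 0.06 for KO high EF.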

How the data were processed

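The authors deposited unnormalised linear fluorescence intensities for 45281 probes with no detection p-values, a log2 table with the same distribution of values on every array, and a summary table. For each group the authors' summary gives means and standard deviations on the log2 scale. It also gives a p-value per probe whose test its header does not state. BeadStudio and R 2.8.0 were used, per the submitters' processing notes; the sources used here do not give the authors' transformation.

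Background correction of the intensities by normexp (offset 50), the log2 step and quantile normalisation were done in limma 3.58.1 (R 4.3.3; data.table package, version 1.17.8). Probes above their array's median on at least 6 arrays were kept (25425), and 52.7% of these had a mean under 8. Quantile normalisation gives every array the same highest values, which compresses the brightest probes. Arrays have no read depth, and their number limits precision. Symbols came from the platform annotation for 34885 probes and from the authors' table for 2359 more; 18 had several and 8037 stayed unnamed. Of the 23 member probes 22 had the same gene in both sources.

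Groups were compared with limma (lmFit, eBayes, two-sided) in 1 fit of 3 group means, and slopes on EF in a second fit, with Benjamini-Hochberg adjustment over all kept probes and a threshold of 0.05. The procedure was tested on simulated data. Labels list each heart with its own age and EF. WT and KO hearts share 11 replicate numbers; deviations of same-numbered hearts correlated at -0.011 to 0.183, with 2 of 11 over 0.1, so the numbers were not used as pairs. The array labels' prefix was read as the chip, which the labels do not state, giving 4 chips of 6 arrays, of which 1 held no KO low EF heart.

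The members and gene lists were chosen with earlier results of these data known. The probe with the highest mean stands for a gene. Of each other list up to 4 genes with the smallest p in KO low EF against WT and up to 2 in KO high EF against WT are named, or whole lists of at most 9 genes (a few genes of the receptor and STAT lists are not reported here, and these lists were not counted), and for the 3 members with the smallest p over the 3 groups the 3 genes of highest correlation. Motif matches used all promoters of the RefSeq table (GRCm38.p6), 250 bases before to 50 after the start. Alternatives were median scaling, a normexp offset of 16, no filter, the authors' values, chip or replicate number as a block, age as a term, array weights, only the compared groups, and leaving out replicate 11.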

Additional observations from a re-analysis of the deposited data

Results flagged for a closer look

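In groups of 4 to 10 hearts each tested member probe was examined for a single heart far from the rest of its group by Dixon's test, which flags about 1 in 20 groups by chance. Of 32 groups tested 9 held such a heart, and 8 of these were KO high EF replicate 11. It lay below its group on Il6ra probes 1 and 3 (5.95 and 6.02), Osmr (6.06), Jak1 probe 2 (6.74) and Stat3 probes 2 and 3 (6.02 and 6.04). It lay above its group on Jak2 probe 1 (10.67) and Socs3 (11.09). In KO low EF, replicate 3 lay above its group on Stat3 probe 2 (12.53), with the nearest heart at 12.21.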

How the results depend on the processing

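Of the member differences from WT with all arrays, those of Lifr probes 1 and 2 in both KO groups, of Lifr probe 3 in KO low EF and of Socs3 in both KO groups kept their direction and their call in 14 of 14 alternatives. Lifr probe 1 between the KO groups kept its call in 10 of 14 and probe 2 in 8 of 14; for probe 1 it was lost with the chip as a block (adjusted p = 0.0731), median scaling (0.522), the replicate block (0.281) and only the groups compared (0.0835). Stat3 probe 1 in KO low EF lost its call with median scaling (0.0849), an offset of 16 (0.0501), no filter (0.0672) and the replicate block (0.0817). Osmr passed in KO low EF in 5 of 14 alternatives and in KO high EF in 3 of 14.

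Counts over all probes moved as follows, and the cause was not tested. KO high EF against WT had 3661 probes past the threshold, 1710 with median scaling and 1532 with the replicate block. KO low EF against KO high EF had 743, 18 with median scaling, 213 with the chip as a block, 2 with the replicate block, 1977 with array weights and 107 with only the groups compared. The slope within KO had 1113, 415 with the chip as a block and 165 with median scaling. The slope within WT had 1, 0 with median scaling, 2 with the authors' values, 8 without replicate 11, 7 with the chip as a block and 27 with the chip as a block without replicate 11. The difference of the slopes had 0, 1 with the chip as a block, 2 without replicate 11 and 18 with the chip as a block without replicate 11. The replicate block gave 5242 for KO low EF against WT and 5863 for all KO hearts, which are within 1.5 times the counts without it.

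Of the single values 46 were flagged as changed in sign, none of them a call in the fit to all arrays without a block. These flags do not hold every change of sign. Over all KO hearts Jak2 probe 1 was at 0.0323 with all arrays and at -0.0155 without replicate 11. The slope of Jak1 probe 2 within KO kept its sign in 2 of 7 alternatives. The flagged values follow. In KO high EF against WT with array weights, with the chip as a block without replicate 11, and without replicate 11, Il6ra probe 1 was at 0.0786, 0.0989 and 0.13, Il6ra probe 3 at 0.0789, 0.13 and 0.11, Jak2 probe 1 at -0.0092, -0.0051 and -0.0105, Jak2 probe 2 at -0.0372, -0.0167 and -0.0313, Stat3 probe 2 at 0.33, 0.36 and 0.34 and Stat3 probe 3 at 0.53, 0.52 and 0.52. Stat3 probe 3 was also at 0.0104 with median scaling, 0.0158 with the chip as a block and 0.13 with the authors' values. Jak1 probe 1 was at 0.0318 with age, 0.0128 with the chip as a block and 0.11 with the replicate block, and Osmr at -0.0457 with age, -0.0043 with an offset of 16 and -0.0315 with the replicate block. In KO low EF against KO high EF, Stat3 probe 1 was at 0.11 with array weights, 0.16 with median scaling, 0.0021 with the chip as a block, 0.0568 with the chip as a block without replicate 11 and 0.088 without it, Stat3 probe 3 at -0.16, -0.17 and -0.13 with array weights, the chip as a block without replicate 11 and without it, Jak2 probe 1 at 0.0164 with array weights and 0.09 with median scaling and Jak2 probe 2 at 0.0388 with median scaling. In KO low EF against WT, Jak2 probe 1 was at 0.0072 with array weights, 0.029 with the chip as a block, and 0.11 with median scaling, under which Jak2 probe 2 was at 0.0694. Over all KO hearts Stat3 probe 2 was at 0.39 with array weights, 0.39 with the chip as a block without replicate 11, 0.11 with the authors' values and 0.39 without replicate 11.

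Probes near the array median of 6.77, Il6 and the Ptger4 probes among them, leave little room to show a fall. Level differences between the brightest probes are compressed. Chip 4, as read from the array labels, held no KO low EF heart.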
